A study of Mus musculus with 12 samples.

Results

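The chemokine ligand genes described here are Ccl2, Ccl7, Ccl12, Ccl8, Ccl9, Ccl6, Ccl3, Ccl4, Cxcl16 and Pf4. They were chosen by symbol, and all 10 were found among the 55401 gene IDs of the count table. Bulk RNA-seq had been made from bone marrow derived macrophages of mice on the C57BL6 background. The 6 young libraries came from animals aged 8 weeks and the 6 old libraries from animals aged 12 months. Bone marrow cells of both groups were grown for 7 days with 20 ng/mL of macrophage colony-stimulating factor (M-CSF), the growth factor that turns marrow cells into macrophages, and no other agent or genotype was given for either group. The labels number the libraries as biological replicates but do not tie each to its own animal, and the spread behind every p-value here may thus be technical.

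Chemokines are small secreted proteins that draw leukocytes along a gradient by acting on G protein-coupled receptors. Ccl2, Ccl7 and Ccl12 are monocyte chemoattractants that act on Ccr2, and Ccl8 belongs to the same family of monocyte chemoattractant proteins. Ccl3 and Ccl4 are the macrophage inflammatory proteins, while Ccl6 and Ccl9 act on Ccr1 and are made by resting myeloid cells of mice. Cxcl16 is made as a transmembrane protein that Adam10 cleaves to release the ligand of Cxcr6, and Pf4 (Cxcl4) is best known from the alpha granules of platelets.

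Total counts ranged from 22.2 to 25.2 M in the young libraries and from 19.3 to 22.4 M in the old ones (1 M is 1000000 counts). The labelled cell type was checked on its markers. In counts per 1000000 (CPM), the mean of Lyz2 was 30704 over young and 30260 over old libraries, that of Csf1r 4377 and 4328, that of Cd68 2781 and 2631, that of Adgre1 1190 and 1266, and that of Itgam 170.2 and 148. Young replicate 6 stood apart from the other libraries. Its mean log2 CPM over 20 cell cycle genes was 7.06, against 4.67 to 5.40 in the other young libraries and 4.28 to 6.34 in the old ones. Its mean over 24 interferon-stimulated genes was 5.40, the lowest of the 12 libraries, which otherwise lay between 5.63 and 7.83. Where a direction or a called result for a chemokine gene rested on this library, the value without it is given too.

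Of the 10 genes, 9 lay on chromosome 11 and Pf4 lay on chromosome 5 (GRCm38, coordinates of the deposited table). Ccl2, Ccl7, Ccl12 and Ccl8 were grouped as the first Ccl locus, which spans 81.2 kb from 82035571 to 82116799. Ccl9, Ccl6, Ccl3 and Ccl4 formed the second, which spans 91.8 kb from 83572919 to 83664683 and begins 1456.1 kb past the end of Ccl8. Neighbours within a locus lay 8.3 kb (Ccl2 to Ccl7), 54.3 kb (Ccl7 to Ccl12), 11.8 kb (Ccl12 to Ccl8), 9.2 kb (Ccl9 to Ccl6), 54.8 kb (Ccl6 to Ccl3) and 13.2 kb (Ccl3 to Ccl4) apart. Cxcl16 stood alone at 70453983 to 70459984, and Pf4 at 90772435 to 90773383. No other gene annotated between the ends of the Ccl loci passed the low-count filter. Ccl11, which lies between Ccl7 and Ccl12, had 2 counts over all libraries, E230016K23Rik had 29, Rpl9-ps1 had 2 and Gm17268 had 0. Cxcl16 shares 552 of its 3021 exon bases (18.3%) with Zmynd15 on the opposite strand. The library kit did not keep strand, so reads from those shared bases cannot be assigned to either gene.

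The first 250 bases upstream of the start were read for the 6 members with a promoter entry in RefSeq (GRCm38.p6), namely Ccl12, Ccl8, Ccl9, Ccl6, Ccl3 and Pf4. Over the 12 libraries the levels of the adjacent genes Ccl12 and Ccl8 followed each other, and those of the adjacent genes Ccl9 and Ccl6 did not. This contrast did not hold over differences of old minus young between same-numbered libraries (r = 0.07 and 0.78). Shown are the promoters of both pairs. They are written 5′ to 3′ on the strand of the gene, as chr11:82101595-82101844 on the + strand for Ccl12, chr11:82114935-82115184 on the + strand for Ccl8, chr11:83578637-83578886 on the - strand for Ccl9 and chr11:83593088-83593337 on the - strand for Ccl6. Capitals mark matches on either strand to any of the motifs listed after the sequences.
Ccl12: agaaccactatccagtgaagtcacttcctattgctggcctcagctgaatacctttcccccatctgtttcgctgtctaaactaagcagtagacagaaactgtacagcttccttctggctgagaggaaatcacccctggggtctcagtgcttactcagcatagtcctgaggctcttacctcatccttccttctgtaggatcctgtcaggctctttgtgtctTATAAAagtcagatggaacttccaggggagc
Ccl8: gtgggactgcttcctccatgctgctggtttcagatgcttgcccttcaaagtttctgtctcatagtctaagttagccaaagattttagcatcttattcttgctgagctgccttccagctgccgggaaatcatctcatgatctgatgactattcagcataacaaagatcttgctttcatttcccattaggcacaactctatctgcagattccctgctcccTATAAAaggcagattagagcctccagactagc
Ccl9: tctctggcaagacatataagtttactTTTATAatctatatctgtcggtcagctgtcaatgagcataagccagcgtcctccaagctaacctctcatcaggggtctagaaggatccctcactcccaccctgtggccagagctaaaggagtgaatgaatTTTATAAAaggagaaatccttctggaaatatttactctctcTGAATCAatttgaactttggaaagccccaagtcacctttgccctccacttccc
Ccl6: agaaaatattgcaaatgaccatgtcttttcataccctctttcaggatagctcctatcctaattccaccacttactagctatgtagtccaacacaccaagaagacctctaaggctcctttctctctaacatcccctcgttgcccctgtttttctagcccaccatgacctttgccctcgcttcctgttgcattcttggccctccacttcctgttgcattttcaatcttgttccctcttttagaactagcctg
The motifs searched on both strands were a kappaB site (GGGA, any 2 bases, TTCC, in 1.21% of 32851 promoters of the same length), an AP-1 site (TGANTCA, 6.75%), an interferon response core (GAAA, any 2 bases, GAAA, in 2.98%), a C/EBP site (TTGCNNAA, 9.56%), a PU.1 site (GAGGAAGT, 2.44%), a TATA box (TATAAA, 12.4%) and an E-box (CACGTG, 6.02%). TATAAA stood 31 to 26 bases before the start of Ccl12 and 32 to 27 bases before that of Ccl8. Ccl9 held the AP-1 letters 53 to 47 bases before its start and TATAAA 92 to 87 bases before it, with matches to the reverse of TATAAA at 94 to 89, which overlap the forward match, and at 224 to 219. Ccl6 and Ccl3 held none of the 7 motifs. Pf4 held the C/EBP letters at 212 to 205 and the reverse of the PU.1 letters at 10 to 3. A local alignment of the Ccl12 and Ccl8 promoters ran over 58 columns, of which 41 (70.7%) were identical. That of Ccl9 and Ccl6 ran over 17 columns, of which 16 were identical. By alignment score Ccl9 with Ccl6 was the highest of all pairs of these promoters (29). Ccl12 with Ccl8 (26) only equalled Ccl12 with Pf4 (26). These matches describe the letters of the windows only.

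Levels were compared between genes as CPM per kb of exon. Ccl9 and Ccl6 had the highest medians over the 12 libraries, 117 and 116 CPM per kb, followed by Ccl4 at 108 and Ccl3 at 103. Pf4 followed at 44.6 and Cxcl16 at 41.6 CPM per kb. The genes of the first Ccl locus were the lowest, with medians of 14.9 CPM per kb for Ccl2, 4.57 for Ccl7, 4.12 for Ccl12 and 3.80 for Ccl8. In CPM not divided by exon length, the median of Cxcl16 (125.6) lay above those of Ccl3 (78.6) and Ccl4 (71.6). By the medians per kb, the genes of the second Ccl locus were thus the highest and those of the first the lowest, with Pf4 and Cxcl16 between them. Among neighbours in this order, the ranges of Ccl3 and Pf4 alone did not overlap, and Ccl3 was above Pf4 in 12 of 12 libraries. Ccl2 was above Ccl7 in all 12 and Cxcl16 was above Ccl2 in 11, the exception being young replicate 6. Ccl9 was above Ccl6 in 6 libraries, Ccl6 above Ccl4 in 7, Ccl4 above Ccl3 in 9, Pf4 above Cxcl16 in 6, Ccl7 above Ccl12 in 7 and Ccl12 above Ccl8 in 9, so these neighbours were not separated. In bulk RNA, fewer cells that make a transcript and less transcript per cell cannot be told apart.

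The question of the design was whether macrophages of old mice differ from those of young mice. None of the 10 chemokine genes was called at an adjusted p below 0.05 in edgeR's quasi-likelihood test over 12620 genes, where 2 genes (0.0158%) were called. At an unadjusted p below 0.05 there was 1 member, Ccl4, against 5.47% of all genes in either direction and 2.24% lower in old. DESeq2 also had 1 member at an unadjusted p below 0.05 and limma voom had 0, and neither called a member after adjustment. No member had groups that did not overlap, compared with 0.206% of all genes. The log2 fold change of old against young was negative for 7 of the 10 members and for 52.5% of all genes tested. The median was -0.18 over the members and -0.01 over all genes. Over 19 alternative settings, none of the 190 member values was called, and the lowest adjusted p was 0.417.

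**Figure D1:**
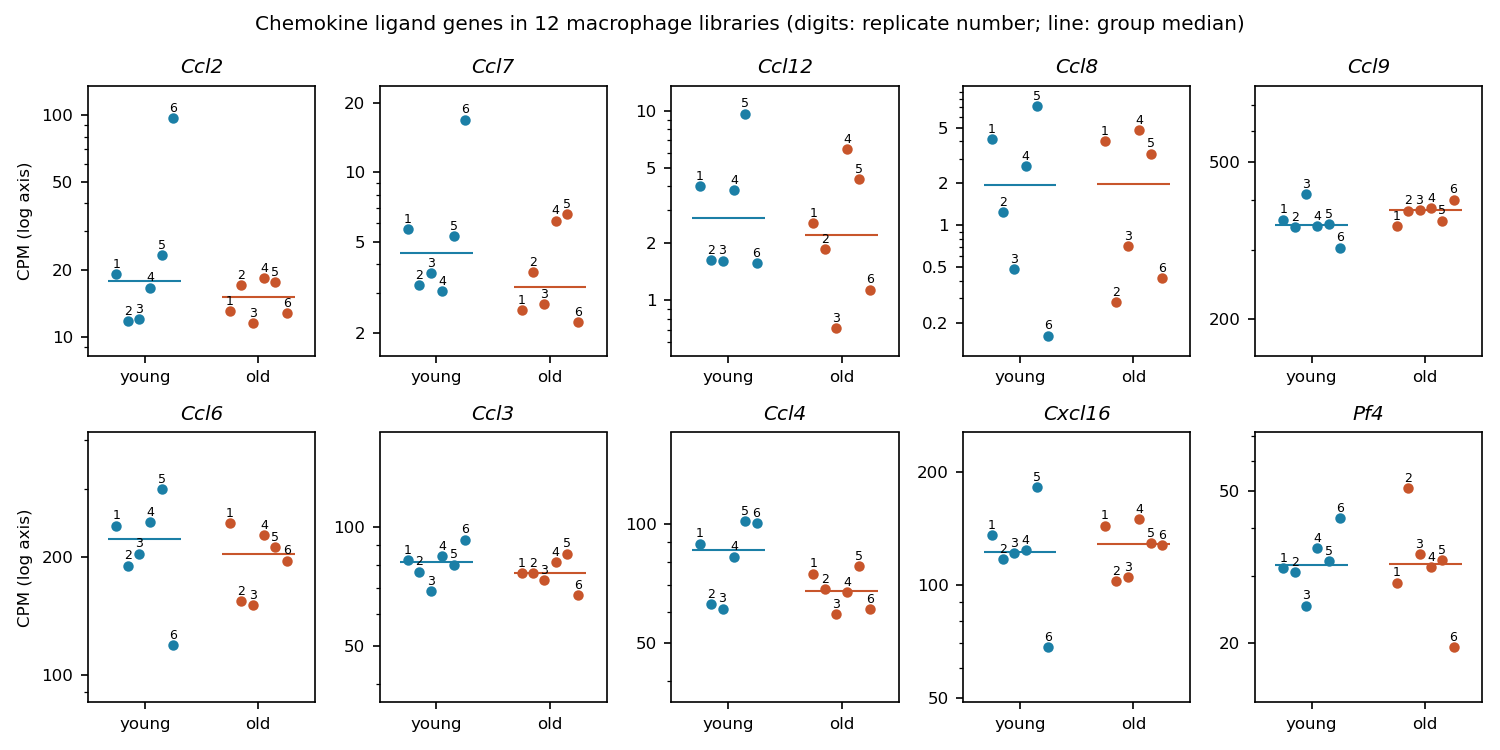
Each panel plots 1 chemokine gene in CPM on a log axis, with a point per library marked by its replicate number and a line at the group median (young 6, old 6). Young and old libraries overlap in every panel, and young replicate 6 is highest for Ccl2 (96.6 CPM) and Ccl7 (16.98 CPM) but lowest for Ccl8, Ccl6, Cxcl16 and Ccl9.

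Ccl2, the best known monocyte attractant, ranged from 11.8 to 96.6 CPM in young libraries with a median of 17.9, and from 11.5 to 18.5 CPM in old libraries with a median of 15.1. One young library, replicate 6, stood far above all others, and the remaining 5 young libraries (11.8 to 23.3 CPM) overlapped the old ones. The young mean was 29.9 ± 33.0 CPM and the old mean 15.1 ± 2.97 CPM (SD, n = 6 each), and the log2 fold change was -0.99 (SE 0.50; edgeR adjusted p = 0.77). With that library left out, the young mean was 16.6 ± 4.88 CPM (SD, n = 5) and the log2 fold change was -0.13. Ccl7, which lies next to Ccl2 and acts on the same receptor, ranged from 3.06 to 16.98 CPM in young (median 4.46) and from 2.23 to 6.59 CPM in old libraries (median 3.17). Its highest library was again young replicate 6, and the groups overlapped. Its log2 fold change was -0.67 (SE 0.46; edgeR adjusted p = 0.77), and -0.07 without that library.

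Ccl12, a mouse monocyte attractant, ranged from 1.58 to 9.70 CPM in young (median 2.73) and from 0.711 to 6.31 CPM in old libraries (median 2.22). Young replicate 5 was the highest and old replicate 3 the lowest, with the groups interleaved. The log2 fold change was -0.40 (SE 0.58; edgeR adjusted p = 0.87), and it was 0.16 without young replicate 5. Ccl8 was the most variable member, with 0.162 to 7.10 CPM in young (median 1.94) and 0.279 to 4.82 CPM in old libraries (median 1.98), or 4 to 164 counts and 6 to 103 counts. The highest library held 43.9 times the CPM of the lowest, and each group held both high and low libraries. In both groups replicates 1, 4 and 5 lay above replicates 2, 3 and 6, and Ccl12, Ccl6 and Cxcl16 split the same way. The log2 fold change of Ccl8 was -0.22 (SE 0.85; edgeR adjusted p = 0.95), 0.38 without young replicate 5 and 0.01 without old replicate 2.

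In the second Ccl locus, Ccl9 was the steadiest gene. It ranged from 304 to 415 CPM in young (median 346.5) and from 345 to 402 CPM in old libraries (median 377). The groups overlapped, and the lowest value was that of young replicate 6. Its log2 fold change was 0.08 (SE 0.07; edgeR adjusted p = 0.80), and it ran from 0.05 (without young replicate 6) to 0.14 (without young replicate 3) with single libraries left out. Ccl6, its neighbour, ranged from 119 to 298.5 CPM in young (median 223) and from 151 to 245 CPM in old libraries (median 204). Young replicate 5 was highest and young replicate 6 lowest, so the young libraries spanned the whole old range. Old against young gave a log2 fold change of -0.13 (SE 0.19; edgeR adjusted p = 0.87), which ran from -0.25 (without young replicate 6) to -0.02 (without young replicate 5) with single libraries left out.

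Ccl3 ranged from 68.6 to 92.8 CPM in young (median 81.35) and from 67.1 to 85.5 CPM in old libraries (median 76.3). The groups overlapped over most of their range, and the log2 fold change was -0.08 (SE 0.08; edgeR adjusted p = 0.82), running from -0.12 (without young replicate 3) to -0.03 (without young replicate 6). Ccl4 ranged from 61.1 to 102 CPM in young (median 86.0) and from 59.2 to 78.2 CPM in old libraries (median 67.7). Of the young libraries, 4 lay above every old library and the other 2, replicates 2 and 3, lay among the lowest old ones. The young mean was 83.0 ± 17.9 CPM and the old mean 68.1 ± 7.47 CPM (SD, n = 6 each). The log2 fold change was -0.29 (SE 0.13), with an unadjusted p of 0.0483 and an adjusted p of 0.77 in edgeR. With single libraries left out, the unadjusted edgeR p of Ccl4 ran from 0.0108 (without young replicate 3) to 0.119 (without young replicate 5). It was 0.106 without young replicate 6, 0.0344 with no low-count filter, 0.0461 with DESeq2 and 0.0731 with limma voom.

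Cxcl16 ranged from 68.2 to 181.5 CPM in young (median 122.5) and from 102 to 149 CPM in old libraries (median 128). Young replicate 5 was highest and young replicate 6 lowest, and all old libraries lay between them. Its log2 fold change was 0.02 (SE 0.18; edgeR adjusted p = 0.98), and -0.10 without young replicate 6. Pf4 ranged from 25.0 to 42.6 CPM in young (median 32.1) and from 19.5 to 51.1 CPM in old libraries (median 32.3), with the highest (replicate 2) and the lowest (replicate 6) both in the old group. Its log2 fold change was 0.00 (SE 0.19; edgeR adjusted p = 1.0). Platelet and megakaryocyte markers were read beside Pf4, since these cells are rich in it. Of 13 listed genes, 7 passed the low-count filter. Gp6 and Gp1bb were at 0 in all libraries. Ppbp, another chemokine of platelet granules, had 71 counts over the 12 libraries, against 376 to 1098 counts of Pf4 in single libraries. The mean CPM of Itga2b was 0.606 over young and 0.833 over old libraries, and that of Itgb3, which macrophages and osteoclasts also express, was 35.3 and 33.5. The summed level of the whole platelet and megakaryocyte list was 242 to 346 CPM in young and 261 to 358 CPM in old libraries. Most of that sum came from listed genes not named here. The part of platelets or megakaryocytes in the level of Pf4 was not tested.

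**Figure D2:**
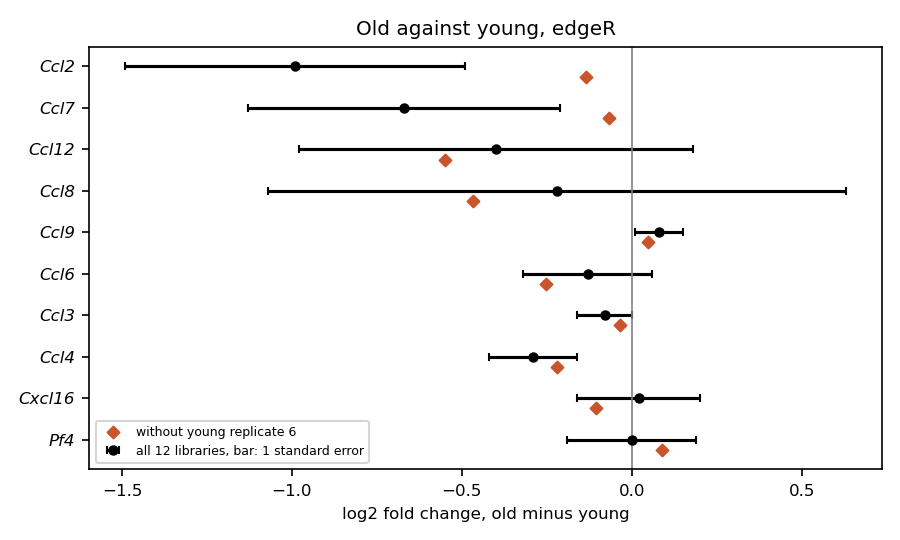
The horizontal axis is the log2 fold change of old against young from edgeR for each chemokine gene, as black points with bars of 1 standard error over 12 libraries and as orange diamonds without young replicate 6. Ccl2 moves from -0.99 to -0.13 and Ccl7 from -0.67 to -0.07 when that library is left out, and Ccl4 stays at -0.22 or below.

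The members differed widely in how much they varied between libraries. By the SD of log2 CPM, Ccl8 lay at percentile 99.9 of all genes tested, Ccl12 at 98.4, Ccl2 at 96.3 and Ccl7 at 95.9. Over all 12 libraries, the 4 genes of the first Ccl locus were thus among the most variable, and they were also the least abundant members. Ccl6 lay at percentile 73.7, Cxcl16 at 71.1, Pf4 at 71.0, Ccl4 at 61.4, Ccl3 at 18.4 and Ccl9 at 14. The highest library was 13.6 times the lowest for Ccl12, 8.39 times for Ccl2 and 7.62 times for Ccl7, but 1.38 times for Ccl3 and 1.37 times for Ccl9. For Ccl2 and Ccl7 the highest library was young replicate 6. Over the other libraries Ccl2 ran from 11.5 to 23.3 CPM and Ccl7 from 2.23 to 6.59 CPM. No percentile was taken without that library.

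Co-variation was then measured for all 45 pairs of members as Pearson's r of log2 CPM over the 12 libraries. After adjustment over the 45 permutation tests, 14 pairs (31.1%) were called, 11 of them positive and 3 negative. The smallest r among them was 0.67 in size. For comparison, 18.9% of all pairs of genes with a mean of at least 5 CPM reached this size, as did 21.7% of 6734 pairs of neighbouring genes within 100 kb. Ccl12 (mean 3.28 CPM) and Ccl8 (2.44 CPM) lay below that level, so pairs as low as theirs are not in this background. By Spearman's rho, 11 member pairs were called. Of the 12 pairs within a Ccl locus, 5 were called (41.7%), with r from -0.83 to 0.90 and a median of 0.17. Of the 33 pairs from different loci, 9 were called (27.3%), with r from -0.70 to 0.94 and a median of 0.34. Over 12 libraries, sharing a locus thus went with a lower median r, and the order turned with young replicate 6 left out, when the median was 0.66 within a locus (7 of 12 pairs called) and 0.52 between loci (12 of 33). No test was made of that difference. In all, 19 pairs were called without this library, where 16.1% of all gene pairs reached an r of 0.67 in size, and 10 of the 19 were among the 14. The 4 pairs lost were Ccl2 with Ccl9, Ccl7 with Ccl3, Ccl7 with Ccl4 and Ccl9 with Ccl4. With each library taken as its deviation from the mean of its age group, 13 pairs were called. Within the 6 young or the 6 old libraries alone no pair was called after adjustment, and 11 and 2 pairs had an unadjusted exact permutation p below 0.05.

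**Figure D3:**
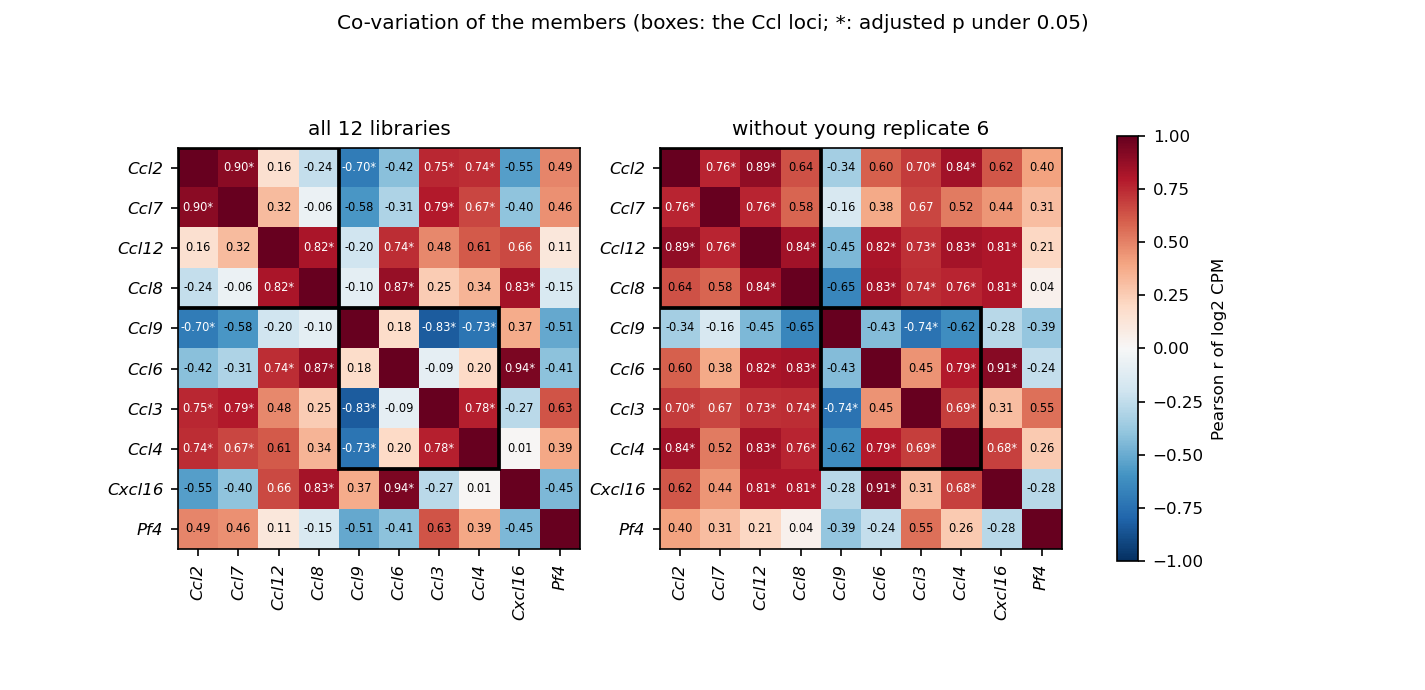
The matrices give Pearson's r of log2 CPM for each pair of chemokine genes over all 12 libraries (left) and without young replicate 6 (right), with stars at an adjusted permutation p below 0.05 and boxes around the Ccl loci. Over 12 libraries Ccl2 goes with Ccl7, Ccl3 and Ccl4, and Ccl12 goes with Ccl8 and Ccl6, while Ccl9 is negative with Ccl2, Ccl3 and Ccl4.

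In the first Ccl locus, the levels of Ccl2 and Ccl7 rose and fell together (r = 0.90, adjusted permutation p = 0.0033; rho = 0.78, adjusted permutation p = 0.024). With the 2 libraries farthest from the median of Ccl2 left out, young replicate 6 and old replicate 3, r was 0.73. Ccl12 and Ccl8, whose promoters are printed above, also moved together (r = 0.82, adjusted permutation p = 0.0084; rho = 0.83, adjusted permutation p = 0.013). Leaving out young replicate 5 and old replicate 3, the farthest in Ccl12, gave r = 0.84. Both genes split by replicate number in the same way in each age group, which the permutations did not take into account. Over the 6 differences of old minus young between same-numbered libraries, r was 0.07. Across the longer gap in the middle of this locus, Ccl7 and Ccl12 gave r = 0.32 over 12 libraries and r = 0.76 without young replicate 6. Ccl2 and Ccl12 gave r = 0.16, and r = 0.89 without that library (adjusted permutation p = 0.011). The division of the first locus into a Ccl2 and Ccl7 pair and a Ccl12 and Ccl8 pair thus rested on young replicate 6, where the former pair was at its highest and the latter at its lowest in the young group.

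In the second Ccl locus, Ccl3 and Ccl4 moved together (r = 0.78, adjusted permutation p = 0.013; rho = 0.77, adjusted permutation p = 0.024), with r = 0.66 once young replicate 6 and old replicate 6 were left out. Ccl9 went the other way. Its r was -0.83 with Ccl3 (adjusted permutation p = 0.0069; rho = -0.64, adjusted permutation p = 0.11) and -0.73 with Ccl4 (adjusted permutation p = 0.023; rho = -0.63, adjusted permutation p = 0.11). Without young replicate 6 these became -0.74 (adjusted permutation p = 0.031) and -0.62 (adjusted permutation p = 0.081). Leaving out the 2 libraries farthest in Ccl9, young replicates 3 and 6, gave -0.63 and -0.57. Ccl9 and Ccl6, although 9.2 kb apart and on 1 strand, gave r = 0.18 over 12 libraries and r = -0.43 without young replicate 6. Ccl6 and Ccl3 gave r = -0.09, and r = 0.45 without that library.

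**Figure D4:**
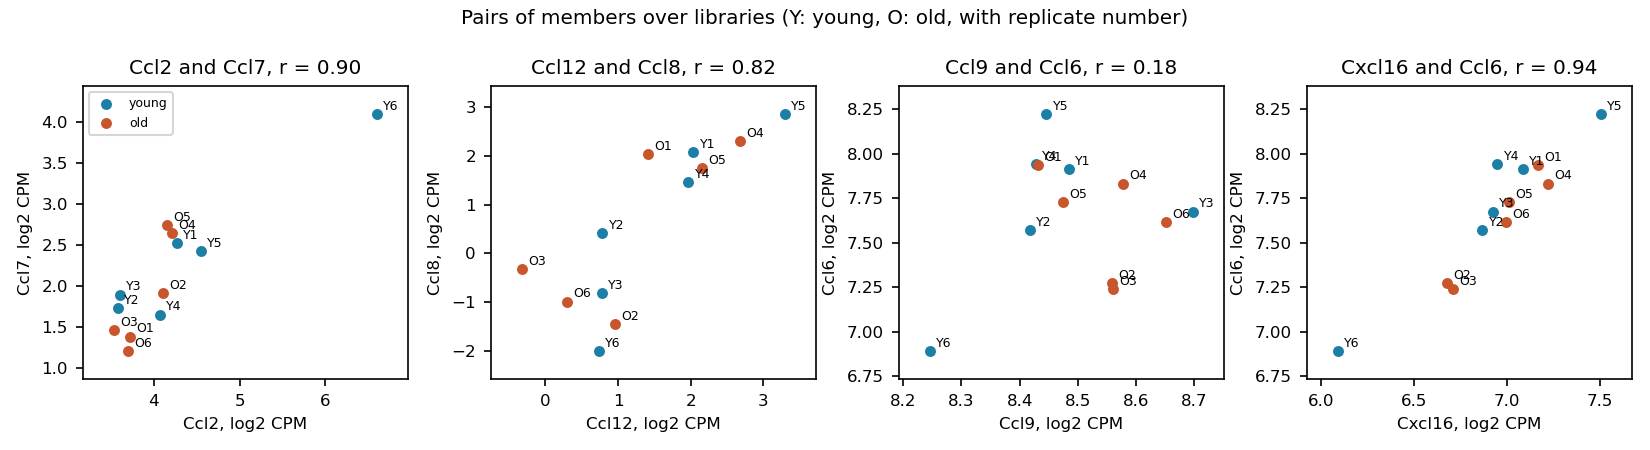
Each panel plots log2 CPM of a pair of chemokine genes, 1 point per library (Y young, O old, with the replicate number). Ccl2 with Ccl7 (r = 0.90) is drawn out by Y6, Ccl12 with Ccl8 (r = 0.82) and Cxcl16 with Ccl6 (r = 0.94) rise across both ages, and Ccl9 with Ccl6 (r = 0.18) shows no common trend.

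The highest r of all was between genes of different loci. Cxcl16 and Ccl6, 13127.9 kb apart, gave r = 0.94 (adjusted permutation p = 0.0009; rho = 0.85, adjusted permutation p = 0.011), and r = 0.87 without young replicates 5 and 6, which are the farthest in Cxcl16. The same pair gave r = 0.97 within the young and 0.97 within the old libraries. Ccl8 went with Ccl6 (r = 0.87, adjusted permutation p = 0.0013; rho = 0.83, adjusted permutation p = 0.013; r = 0.78 without young replicate 6 and old replicate 2) and with Cxcl16 (r = 0.83, adjusted permutation p = 0.0013; rho = 0.90, adjusted permutation p = 0.0085; r = 0.78 without young replicates 5 and 6). Ccl2 went with Ccl4 (r = 0.74, adjusted permutation p = 0.0033; rho = 0.86, adjusted permutation p = 0.011; r = 0.81 without young replicate 6 and old replicate 3) and with Ccl3 (r = 0.75, adjusted permutation p = 0.0055; rho = 0.73, adjusted permutation p = 0.039; r = 0.68 without the same libraries). Its r with Ccl9 was -0.70 (adjusted permutation p = 0.042; rho = -0.31, adjusted permutation p = 0.53), which shrank to -0.31 without those libraries. Ccl7 gave r = 0.79 with Ccl3 (adjusted permutation p = 0.0083; rho = 0.77, adjusted permutation p = 0.024) and r = 0.67 with Ccl4 (adjusted permutation p = 0.042; rho = 0.59, adjusted permutation p = 0.14), and 0.59 and 0.52 without young replicate 6 and old replicate 5. Ccl12 and Ccl6 gave r = 0.74 (adjusted permutation p = 0.022; rho = 0.78, adjusted permutation p = 0.024), and 0.58 without young replicate 5 and old replicate 3. Cxcl16, Ccl6, Ccl8 and Ccl12 all split by replicate number in the same way in each age group. The permutations did not take this into account. Over the 6 differences of old minus young between same-numbered libraries, r was 0.96 (Cxcl16 with Ccl6), 0.70 (Cxcl16 with Ccl8), 0.57 (Ccl8 with Ccl6) and 0.21 (Ccl12 with Ccl6). None of the 45 pairs was called over these differences.

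Read after their values were seen, the members made a pair of sets that cut across the loci. Ccl2, Ccl7, Ccl3 and Ccl4 gave r from 0.67 to 0.90 in all 6 of their pairs, and from 0.52 to 0.84 without young replicate 6. Ccl12, Ccl8, Ccl6 and Cxcl16 gave r from 0.66 to 0.94, from 0.81 to 0.91 without young replicate 6, from 0.77 to 0.97 within the young and from 0.70 to 0.97 within the old libraries. Over differences of old minus young between same-numbered libraries, r in this set ran from 0.07 (Ccl12 with Ccl8) to 0.96 (Cxcl16 with Ccl6). The 16 pairs between these sets had a median r of -0.02 (-0.55 to 0.61) over 12 libraries. Without young replicate 6 all 16 were positive, with a median of 0.66 (0.31 to 0.89), so the separation of the sets rested on this library. Ccl9 was negative with all 9 other members without it (-0.74 to -0.16). None of the 9 pairs with Pf4 was called, with or without young replicate 6.

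The levels of interferon-stimulated genes moved with the second of these sets. Over a family of 20 relations (10 members with 2 lists, added after the values were seen), the mean log2 CPM of 24 interferon-stimulated genes gave r = 0.90 with Ccl6 (adjusted permutation p = 0.0008; rho = 0.83, adjusted permutation p = 0.007), 0.89 with Cxcl16 (adjusted permutation p = 0.0006; rho = 0.92, adjusted permutation p = 0.0026), 0.86 with Ccl8 (adjusted permutation p = 0.0015; rho = 0.86, adjusted permutation p = 0.007) and 0.85 with Ccl12 (adjusted permutation p = 0.0024; rho = 0.82, adjusted permutation p = 0.007). With the 2 libraries farthest from the median of this list left out, young replicates 5 and 6, r was 0.81 for Ccl6, 0.86 for Cxcl16, 0.76 for Ccl8 and 0.81 for Ccl12. The other 6 members were not called, with r from -0.37 (Pf4) to 0.28 (Ccl4). The share of all genes reaching such an r with this list was not taken. The relations are thus not shown to be particular to these members. Among single pairs of genes with a mean of at least 5 CPM, 18.9% reached an r of 0.67 in size. In young libraries the list, like these members, was higher in replicates 1, 4 and 5 (6.74 to 7.83) than in 2, 3 and 6 (5.40 to 6.37). The old libraries did the same, except that replicate 6 (6.53) lay above replicate 1 (6.42). The mean of the macrophage markers split fully by number in both groups. The permutations did not take this into account, and no r over same-numbered differences is given for the list. Leaving out young replicate 6, Ccl2 (r = 0.72, adjusted permutation p = 0.036) and Ccl4 (r = 0.69, adjusted permutation p = 0.044) were called too. The interferon list was highest in young replicate 5 (7.83) and old replicate 4 (7.32) and lowest in young replicate 6 (5.40). Its 24 genes had a median log2 fold change of -0.18 (21 negative, 0 called by edgeR, DESeq2 or limma voom, and 0 at an unadjusted p below 0.05). That direction rested on single young libraries, as the median was 0.14 without young replicate 5 (20 of 24 positive) and -0.35 without young replicate 6 (24 of 24 negative).

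**Figure D5:**
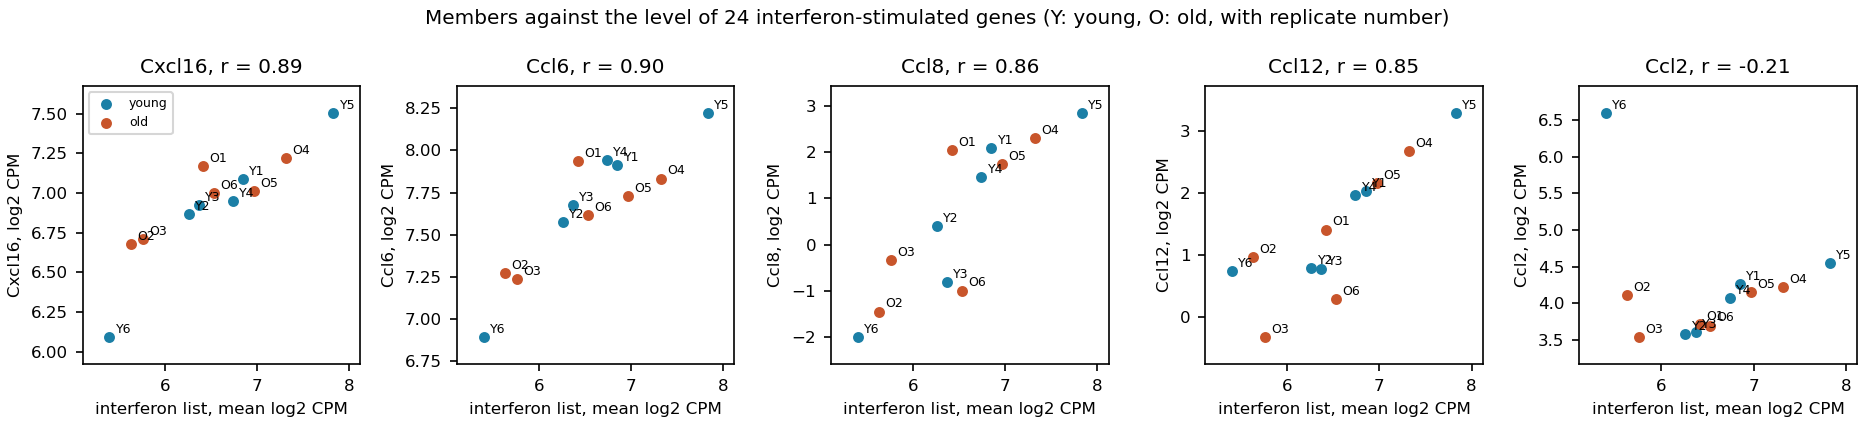
Each panel plots log2 CPM of a chemokine gene against the mean log2 CPM of 24 interferon-stimulated genes, 1 point per library (Y young, O old, with the replicate number). Cxcl16 (r = 0.89), Ccl6 (r = 0.90), Ccl8 (r = 0.86) and Ccl12 (r = 0.85) rise with the list, and Ccl2 (r = -0.21) does so only when Y6 is set aside (r = 0.72).

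Cell cycle genes moved with 3 of these members in the opposite direction, and with Pf4 in the same direction. The mean of 20 cell cycle genes gave r = -0.87 with Cxcl16 (adjusted permutation p = 0.0015; rho = -0.85, adjusted permutation p = 0.007), -0.85 with Ccl6 (adjusted permutation p = 0.0028; rho = -0.64, adjusted permutation p = 0.088), -0.71 with Ccl8 (adjusted permutation p = 0.019; rho = -0.64, adjusted permutation p = 0.088) and 0.69 with Pf4 (adjusted permutation p = 0.035; rho = 0.48, adjusted permutation p = 0.26). Without young replicate 6 and old replicate 2, the farthest from the median of this list, r fell in size to -0.64, -0.60, -0.39 and 0.33, so the relations of Ccl8 and Pf4 rested largely on these 2 libraries. Without young replicate 6 alone, Cxcl16 (r = -0.73) and Ccl6 (r = -0.72) were called, each with an adjusted permutation p of 0.036. The share of all genes reaching such an r with the cell cycle list was not taken either. In young libraries this list was lower in replicates 1, 4 and 5 (4.67 to 4.84) than in 2, 3 and 6 (5.01 to 7.06). The old libraries did the same except for replicate 6 (4.35), and the permutations did not take this into account. The part of cell cycle activity or interferon signalling in the levels of the chemokine genes was not tested.

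Across the 9413 other genes of at least 5 CPM, the genes whose log2 CPM was most like that of each member are given as descriptions, since all rest on the same 12 libraries. Cxcl16 was nearest to P2rx4 (r = 0.98), Ctsh (0.97) and Pltp (0.97), and Ccl6 to Evi2a (0.98), Aif1 (0.97) and Gm36161 (0.97). Ccl8 was nearest to Apoe, the lipid carrier (0.95), A630001G21Rik (0.95) and the lectin gene Mgl2 (0.94). Ccl12 was nearest to Il10, an anti-inflammatory cytokine (0.95), Tent4a (0.94) and Ifi35 (0.93). For these 12 genes r lay between 0.92 and 0.96 once young replicate 6 was left out.
For Ccl2 the nearest genes were Psmd7 (0.96), Uba2 (0.96) and Rcc2 (0.95), which fell to 0.82, 0.71 and 0.81 without that library. Ccl7 was nearest to Exosc7 (0.90), Itfg2 (0.87) and Uba2 (0.86), which fell to 0.74, 0.65 and 0.64. Ccl3 was nearest to Trim27 (0.90), Ccdc115 (0.88) and Exosc7 (0.87), and Ccl4 to Nes (0.95), BC031181 (0.94) and Txn2 (0.93). Ccl9 was nearest to Vgll4 (0.88), Clasp2 (0.87) and Crbn (0.86). Pf4 was nearest to Mt1, a metallothionein (0.93), Slc2a8 (0.92) and Mrps16 (0.91).

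The rest of the chemokine system was read from lists in the same edgeR fit, and none of the 58 genes tested was called (0 also with DESeq2 and with limma voom). At an unadjusted p below 0.05 there were 3 of the 58 in edgeR (Ccl25, Rel and Adam10), against 5.47% of all genes. DESeq2 had 4 of the 58 and 760 of all 12620 genes, and limma voom had 4 and 669. No excess over all genes is read from these counts. Of 29 other chemokine ligand genes in the table, 9 passed the low-count filter, with positive log2 fold changes for 5 and negative for 4, and 8 had no count in any library. The most abundant were Cxcl10, an interferon-induced ligand of Cxcr3 (mean 50.7 CPM over young and 46.9 over old libraries), Ccl5 (20.1 and 14.9), Cxcl14 (5.71 and 5.70) and Cx3cl1 (3.15 and 3.19). Ccl25, a ligand best known from thymus and gut, had the lowest p of the 9, with a mean of 1.18 CPM over young and 2.01 CPM over old libraries (edgeR unadjusted p = 0.00094, adjusted p = 0.77). Of 24 receptor genes, 10 were tested, 6 with positive and 4 with negative log2 fold changes. Among the receptors of the members, Ccr2 averaged 38.1 CPM over young and 35.0 over old libraries, and Ccr1 averaged 9.39 and 8.96. Cxcr4 was the most abundant receptor at 163 and 200.5 CPM, and Ccrl2 stood at 15.63 and 15.99. Of 15 genes that cleave, bind or sulfate chemokines or their partners, 9 had positive and 6 negative log2 fold changes, and the most abundant were Hpse (395 and 422 CPM), Adam17 (251 and 272), Mmp12 (222 and 207) and Sdc4 (140 and 132). Adam10, the sheddase of Cxcl16, stood at 102 and 118 CPM. Of 24 tested NF-kB and AP-1 regulators, 15 had positive and 9 negative log2 fold changes, with a median of 0.05. With single libraries left out, the median of the other ligands (0.02) ran from -0.06 (without young replicate 6) to 0.12 (without young replicate 5), and that of the receptors (0.08) from -0.15 (without old replicate 6) to 0.13 (without young replicate 5). The median of the processing genes (0.09) ran from 0.03 to 0.12 and that of the NF-kB and AP-1 regulators from 0.01 (both lowest without young replicate 6) to 0.10.

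Markers of the cells and states that a culture could hold were read in the same way, and none of the 86 tested was called by edgeR, DESeq2 or limma voom. At an unadjusted p below 0.05 there were 5 of the 86 in edgeR, against 5.47% of all genes, 4 in DESeq2 and 4 in limma voom. No excess over all genes is read from these counts. The 5 in edgeR were 2 macrophage markers, 2 dendritic cell markers and 1 of monocytes and progenitors. Among them were Itgam, Cd209a, Clec9a and Ly6c2, and not all are named here. All 20 cell cycle genes were tested, and all 20 had negative log2 fold changes (median -0.31). This direction rested on young replicate 6, without which 19 of the 20 were positive and the median was 0.31. Of 10 macrophage markers 7 had negative log2 fold changes (median -0.05), and the median was 0.03 without young replicate 5. Of neutrophil markers 5 of 12 were tested and all 5 were positive (median 0.45). Their median was 0.27 without young replicate 6 (4 of 5 positive), 0.19 without old replicate 4 and 0.28 without old replicate 5. Of monocyte and progenitor markers 6 of 9 were tested, 4 of them positive (median 0.44, but 0.20 without old replicate 4 and 0.09 without old replicate 6). Of mast cell, basophil and eosinophil markers 4 were tested, all positive (median 0.34, 0.22 without old replicate 1, and 3 of 4 positive without old replicate 6), and of dendritic cell markers 5, with 2 positive. Few markers passed the filter for T and NK cells (1), B cells (2) and stromal and endothelial cells (2). Summed neutrophil markers ran from 51.1 to 195 CPM in young and from 103 to 215 CPM in old libraries. The part of any of these cells in the chemokine levels was not tested.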

How the data were processed

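Per the labels' protocols, RNA of 12 macrophage cultures was sequenced after library preparation by TruSeq RNA v2. The authors deposited 1 table of whole-number read counts per gene, not normalized, which the file headers credit to featureCounts 1.6.0 with GRCm38 gene models from Ensembl release 100, and an assignment summary. The file headers also give each gene's exon length, another value the authors deposited. STAR and FastQC are named in the submitters' processing notes. Column sums equalled the assigned totals in 12 of 12 libraries, and no column was left unused. Among the members with the lowest counts, Ccl8 was even in 9 of 12 libraries, Ccl7 in 7 and Ccl12 in 4. Of other ligands, Ccl24 held even counts only and Ccl25 also odd ones. Mates may have been counted separately, which these counts do not settle, and counts may overstate independent molecules. Multiply aligned reads were not counted, which can lower counts of close paralogs.

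Old and young counts were compared by the edgeR 4.0.16 quasi-likelihood F test in R 4.3.3, using TMM factors, the low-count filter filterByExpr, robust fitting and age as the single term. This kept 12620 genes and all 10 members. Two-sided p-values received Benjamini-Hochberg adjustment over all genes, with a threshold of 0.05. CPM used TMM factors, and log2 CPM a prior count of 2. Pairs of members were tested over the 12 libraries with 100000 two-sided permutations and adjusted over 45 pairs (within 1 age group, exact permutations). A locus joined members whose neighbouring starts lay within 500 kb. Tests were checked on simulated data. The members, lists, motifs and rules were chosen with earlier results of these data known. Named beside the members were up to 4 of the most abundant genes of each list of other ligands, receptors and processing genes, neighbours in a locus, the 3 genes most like each member, and macrophage markers. Outside this rule, Adam10, Ccr1, Ccl25, the platelet genes and the markers at an unadjusted p below 0.05 were chosen after their values were seen. Some genes that this rule names are not reported here. Alternatives were other scalings, no filter, DESeq2 1.42.0, limma 3.58.1 voom, a replicate block, each library left out, and young replicate 6 with old replicates 2 and 3 left out. Gene names matched 55141 of 55401 IDs. Permutations and figures used Python 3.11.15, SciPy 1.17.1 and matplotlib 3.10.9.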

Additional observations from a re-analysis of the deposited data

Results flagged for a closer look

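In 3 of 20 groups of 6 libraries, 1 library lay far from the rest, its gap to the nearest library divided by the range of the group being above 0.625. The rule gives about 1 in 20 such groups by chance if values are normally distributed and groups are independent. Neither was shown for these CPM values, and the levels of Ccl2 and Ccl7 moved together. No excess over chance is thus read from this count. Ccl2 stood at 96.6 CPM in young replicate 6, where the next highest young library had 23.3 CPM (ratio 0.86). Ccl7 stood at 16.98 CPM in the same library, next to 5.66 CPM (ratio 0.81). Ccl12 stood at 9.70 CPM in young replicate 5, next to 4.01 CPM (ratio 0.70). Young replicate 6 had the highest cell cycle level (7.06) and the lowest interferon level (5.40), and young replicate 5 the highest interferon level (7.83), as mean log2 CPM of the lists. Their part in these values was not tested.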

How the results depend on the processing

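No member was called under any alternative. The count of genes called between ages, 2 with all libraries, was 4 with no low-count filter, 11 with DESeq2 and 4 with the replicate block, and 1 (without young replicate 4) to 5 (without young replicate 3) with 1 library left out. The log2 fold change of Pf4 turned to -0.0025 with upper quartile factors, -0.0009 with no filter, -0.0336 with limma voom, -0.0315 with the replicate block, and -0.138 without young replicate 6 and old replicates 2 and 3. Without those 3 libraries, Ccl7 turned to 0.073 and Ccl8 to 0.0092. With single libraries left out, Ccl12 ran from -0.80 to 0.16, Ccl8 from -0.59 to 0.38, Cxcl16 from -0.10 to 0.16 and Pf4 from -0.16 to 0.12. The 14 called pairs became 11 to 19 with 1 library left out. They became 0 within the 6 young libraries (11 at an unadjusted exact permutation p below 0.05), 0 within the 6 old ones (2) and 0 with the replicate block (10), taken as 6 differences of old minus young. With the replicate block, some r values were also far smaller: Ccl12 with Ccl8 gave 0.07 (0.89 within young and 0.77 within old), Ccl12 with Ccl6 gave 0.21, Cxcl16 with Ccl12 gave 0.36 and Ccl8 with Ccl6 gave 0.57. Others were not, with Cxcl16 and Ccl6 at 0.96 and Ccl2 and Ccl7 at 0.90. The r of Ccl9 and Ccl6 turned to -0.0769 by Spearman's rho, -0.45 without the 3 libraries and -0.43 within old, and with single libraries left out ran from -0.43 to 0.28, and it was 0.78 with the replicate block. That of Ccl6 and Ccl3 turned to 0.16, 0.48 and 0.34, and ran from -0.19 to 0.45, and it was -0.996 with the replicate block (adjusted exact permutation p = 0.0938). That of Ccl7 and Ccl12 turned to -0.15 within young. The cause of these changes was not tested. Deviations of same-numbered libraries from their group means correlated at 0.31, 0.12, 0.02, 0.38, 0.39 and -0.17 for numbers 1 to 6. As 4 of the 6 exceeded 0.1 and not all, the numbers were not taken to pair the libraries. Yet Ccl8, Ccl12, Ccl6 and Cxcl16 split by number in both groups, with replicates 1, 4 and 5 above 2, 3 and 6. Of 12 libraries, 4 correlated best with the library of their own number. Depth limits Ccl8, which had as few as 4 counts in a library.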
